A study of Mus musculus with 2 samples.

Results

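The genes described here are the mouse receptors that bind the constant, or Fc, part of immunoglobulin G (IgG), together with the signalling chain that most of them share. They were chosen by symbol, and all 6 (Fcgr1, Fcgr3, Fcgr4, Fcgr2b, Fcer1g and Fcgrt) were among the 31053 genes of the single-cell count matrix. The matrix held 3' RNA counts of living leucocytes, sorted by their surface protein CD45 from tumours of B16, a mouse melanoma cell line, in mice aged 8 weeks. There was 1 library labelled WT, from Mettl3 fl/fl Lyz2 +/+ mice without Cre, and 1 labelled KO, from Mettl3 fl/fl Lyz2 cre/+ mice. In the KO mice the Cre recombinase is expressed from the Lyz2 gene, which is active in macrophages, monocytes and granulocytes, and is meant to delete Mettl3, the gene of the methyltransferase that places N6-methyladenosine on RNA. The study pooled the cells of several mice for each library. The comparison asks how the receptors were distributed over the cells of the tumour and whether their levels differed between the libraries.

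The Fc receptors for IgG let a cell read antibody that has coated a target. Fcgr1 encodes the high-affinity receptor FcγRI, Fcgr3 the low-affinity receptor FcγRIII and Fcgr4 the intermediate-affinity receptor FcγRIV, and all of these activating receptors signal and reach the surface through the γ chain encoded by Fcer1g, whose activation motif recruits the kinase Syk. Fcgr2b encodes FcγRIIB, the inhibitory receptor, which carries its own inhibitory motif and recruits the phosphatase SHIP1. Fcgrt encodes the heavy chain of FcRn, which binds IgG inside endosomes and returns it to the surface rather than to the lysosome. In tumours these receptors are best known for antibody-dependent phagocytosis and killing by macrophages, monocytes, neutrophils and NK cells.

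Fcgr2b (ENSMUSG00000026656, positions 170958617 to 170976547, minus strand), Fcgr4 (ENSMUSG00000059089, 171018920 to 171029761, plus strand), Fcgr3 (ENSMUSG00000059498, 171051174 to 171064935, minus strand) and Fcer1g (ENSMUSG00000058715, 171229572 to 171234365, minus strand) lie within 275.7 kb of chromosome 1 in GRCm38. Fcgr1 (ENSMUSG00000015947, minus strand) lies on chromosome 3 at 96282909 to 96293969, and Fcgrt (ENSMUSG00000003420, minus strand) on chromosome 7 at 45092990 to 45103851. The Fcgr genes are paralogs, but their transcript ends, where the 3' chemistry counts, are distinct. Of the 50-base words in the last 500 bases of the protein-coding transcripts, 2.25% of those of Fcgr2b also occurred in a transcript of another gene, Fcgr3, and 0% of those of the other members did. The antisense gene Gm38204, which overlaps Fcgr2b, held 11 UMIs in all cells.

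The 250 bases before a RefSeq transcription start (GRCm38.p6) are shown for Fcgr1 and Fcgr4, the members with the highest ratios between the libraries in monocyte-like cells, and for Fcgr3 and Fcer1g, whose ratios there were closer to 0. Capitals mark matches, on either strand, to TTCNNNGAA (the GAS element of genes that respond to interferon-γ), to GAAANNGAA (a core of the interferon-stimulated response element) and to GAGGAA (a core of the sites of PU.1, a transcription factor of myeloid cells).
Fcgr1, chr3:96293970-96294219, minus strand: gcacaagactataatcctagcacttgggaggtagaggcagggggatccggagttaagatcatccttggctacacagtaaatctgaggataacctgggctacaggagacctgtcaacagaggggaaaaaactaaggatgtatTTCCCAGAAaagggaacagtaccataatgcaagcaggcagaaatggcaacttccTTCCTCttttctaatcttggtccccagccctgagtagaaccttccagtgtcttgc
Fcgr4, chr1:171018676-171018925, plus strand: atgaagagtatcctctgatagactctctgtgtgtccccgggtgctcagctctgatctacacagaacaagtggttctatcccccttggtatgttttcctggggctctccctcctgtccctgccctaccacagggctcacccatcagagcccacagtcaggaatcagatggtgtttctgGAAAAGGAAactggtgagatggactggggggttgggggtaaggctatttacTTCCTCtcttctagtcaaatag
Fcgr3, chr1:171059404-171059653, minus strand: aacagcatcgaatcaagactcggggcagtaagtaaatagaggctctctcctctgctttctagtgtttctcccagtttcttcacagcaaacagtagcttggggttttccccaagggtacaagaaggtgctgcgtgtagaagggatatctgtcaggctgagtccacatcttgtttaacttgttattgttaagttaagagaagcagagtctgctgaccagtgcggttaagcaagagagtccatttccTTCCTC
Fcer1g, chr1:171234350-171234599, minus strand: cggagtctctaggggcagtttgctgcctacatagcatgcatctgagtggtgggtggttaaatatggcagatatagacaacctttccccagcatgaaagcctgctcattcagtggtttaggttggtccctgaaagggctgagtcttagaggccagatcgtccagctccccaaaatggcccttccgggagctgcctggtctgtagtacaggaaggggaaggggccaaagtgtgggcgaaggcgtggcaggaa
The Fcgr1 window held a TTCNNNGAA match that began 109 bases upstream of the start and a GAGGAA match at 55 bases. The Fcgr4 window held a GAAANNGAA match at 73 bases and a GAGGAA match at 22 bases, and the Fcgr3 window a GAGGAA match at 6 bases. The matches did not overlap each other, and the Fcer1g window held none, which says only that these letters are not in it. The windows of Fcgr2b, whose ratio in monocyte-like cells was -0.03, and of Fcgrt held none either and are not shown. A second RefSeq start of Fcgr3 (window 171059395 to 171059644) placed its GAGGAA match at 15 bases. The shown windows of Fcgr4, Fcgr3 and Fcer1g held 6, 27 and 16 bases of exons of these genes. Of 32851 windows of the same length, 7.02% held TTCNNNGAA, 7.13% GAAANNGAA and 23.3% GAGGAA. The matches describe the sequence, and factor binding was not measured.

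There were 5895 barcodes with 45963969 unique molecular identifiers (UMIs, each a counted molecule) in the WT library and 8446 with 54052317 in the KO library. After filtering and removal of likely doublets, 5405 and 7625 cells remained, with a median of 4148 and 3569 UMIs per cell. The libraries had 13 barcode sequences in common. Cells were put into 11 classes by marker genes, none of them an Fc receptor, and 1668 and 2072 were macrophage-like, 1069 and 2675 monocyte-like and 656 and 300 granulocyte-like. The macrophage gene C1qa stood at 3242 and 3205 UMIs for every 1000000 counted in the class (CPM) among macrophage-like cells, against 75.3 and 77.4 CPM in T-like cells, and the granulocyte gene Csf3r at 1365 and 1463 CPM in granulocyte-like cells, against 36.7 and 36.9 CPM in macrophage-like cells. Mettl3 was not lower in the library labelled KO (9.65 and 10.9 CPM in macrophage-like cells, from 172 and 184 UMIs), so the counts of Mettl3 did not check the labels. Lyz2, the gene into which Cre is inserted, was at 6019 and 2712 CPM there. With 1 library per genotype there was no spread between mice to test against, and every interval given is a 95% interval of counting error only, so a difference beyond it holds between these libraries and not between genotypes.

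Each library carried the Fcγ receptors mainly in its macrophage-like and monocyte-like cells. Both classes together held 83.2% of the Fcgr1 UMIs in the WT library and 87.7% in the KO library, and the corresponding shares of the Fcgr4 UMIs were 83.2% and 87.5%. Class size enters these shares. Of the 42043640 UMIs of all genes labelled WT, macrophage-like cells held 17826659 and monocyte-like cells 5247517. Of the 47306740 labelled KO, they held 16846895 and 10843814. Fcgrt was spread more widely, with 16.3% and 14.0% of its UMIs in the conventional dendritic classes (cDC1-like and cDC2-like). These classes held 1952153 and 1523684 UMIs of all genes labelled WT, and 1631891 and 1512968 labelled KO.

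**Figure D1:**
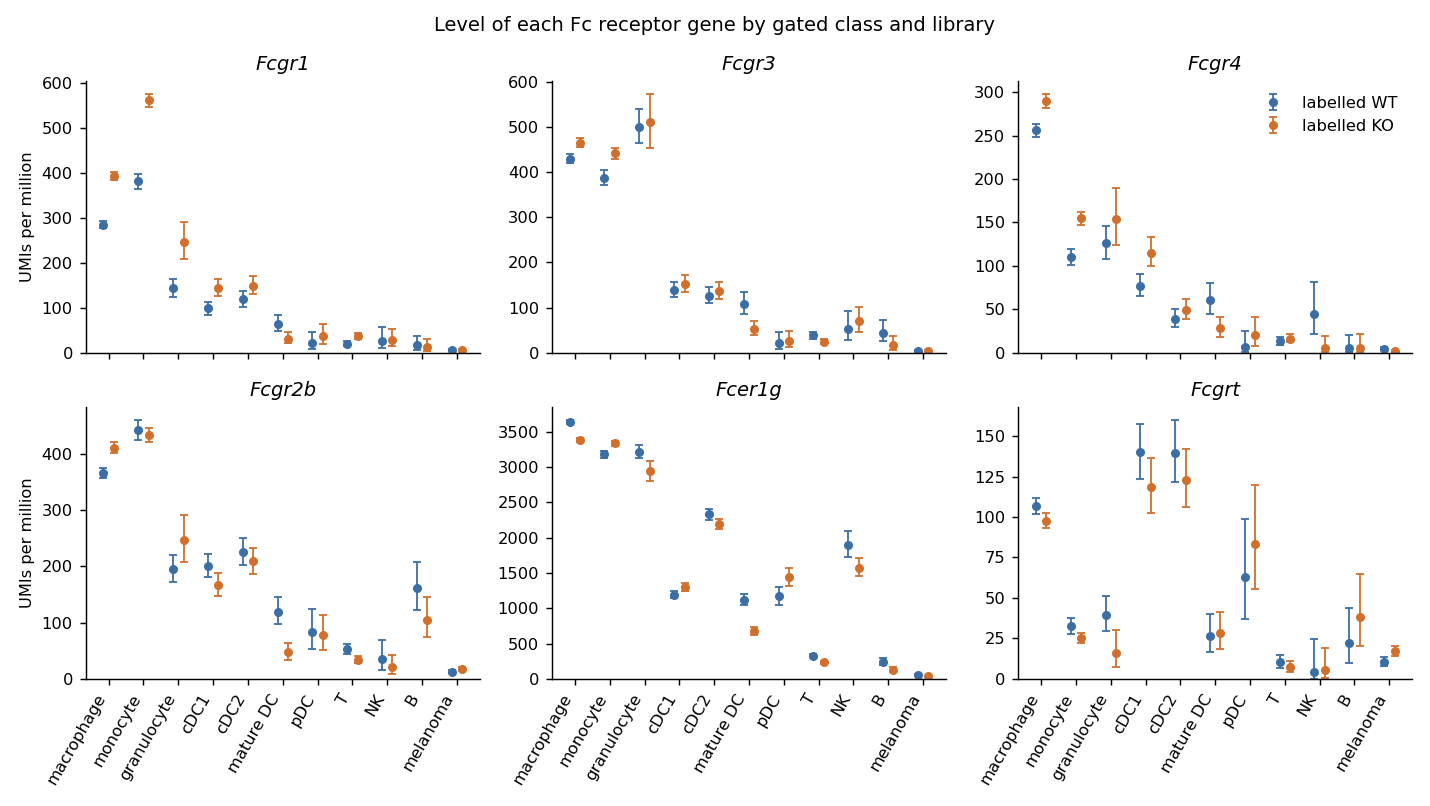
Level of each gene (CPM, linear axes from 0) in 11 gated classes, with blue points for the library labelled WT and orange for KO and bars for the exact 95% Poisson interval of counting error. Fcgr1 peaked in monocyte-like cells at 381 and 561 CPM, Fcgr3 in granulocyte-like cells at 500.2 and 511 CPM, and Fcgr4 in macrophage-like cells at 256 and 290 CPM, while Fcgrt in cDC1-like and cDC2-like cells lay at 118 to 140 CPM. Labelled KO, the Fcgr3 intervals of granulocyte-like (454 to 573 CPM) and macrophage-like cells (455 to 476 CPM) overlapped.

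Fcgr1, the high-affinity receptor, was higher in the library labelled KO in both macrophage-like and monocyte-like cells. In monocyte-like cells it stood at 381 CPM in the library labelled WT (interval 364 to 398, from 1999 UMIs) and at 561 CPM in that labelled KO (547 to 575, from 6083 UMIs), 1.47-fold higher, a log2 ratio of KO over WT of 0.56 (0.49 to 0.63) that was 0.44 with cells thinned to 1000 UMIs. Macrophage-like cells held 285 CPM (277 to 293) and 393 CPM (384 to 403), 1.38-fold higher, a log2 ratio of 0.46 (0.41 to 0.52). The intervals of the libraries did not overlap in either class, and in both libraries the monocyte-like level lay above the macrophage-like one. The make-up of these classes differed between the libraries too. Ly6c2, a marker of classical monocytes, was at 60.9 and 145 CPM in macrophage-like cells (2.39-fold) and at 571 and 748 CPM in monocyte-like cells (1.31-fold). Of the Leiden clusters, which group cells by their whole profile, the macrophage-like one with most cells over both libraries held 398 and 1031 cells, and 1 of those named monocyte-like held 87 and 456. Their part in the Fcgr1 ratio was not tested. Dendritic classes carried less, with 98.4 and 143 CPM in cDC1-like cells and 119 and 149 CPM in cDC2-like cells. The share of macrophage-like cells with a Fcgr1 UMI was 73.7% and 75.5% at full depth, and 25.4% and 36.0% after each cell was thinned to 1000 UMIs. The corresponding thinned shares of monocyte-like cells were 28.3% and 37.5%, and those of T-like cells, which should lack the gene, 1.20% and 2.98%. Median depths before thinning were 8805 and 6304 UMIs in macrophage-like, 4177 and 3365 in monocyte-like and 2335 and 1820 in T-like cells, and 128 and 190 macrophage-like cells under 1000 UMIs were left out.

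Fcgr3, the low-affinity activating receptor, was the most even of the activating receptors over macrophage-like, monocyte-like and granulocyte-like cells and the most abundant of the Fcγ receptors in granulocyte-like cells. It reached 500.2 CPM in granulocyte-like cells labelled WT (interval 464 to 539) and 511 CPM in those labelled KO (454 to 573), a log2 ratio of 0.03 (-0.17 to 0.23) that was -0.12 with TMM scaling, a trimmed mean over genes in place of the class total. The difference was not detectable at this depth, from 699 and 292 UMIs. Macrophage-like cells stood at 430 CPM (420.0 to 439) and 465 CPM (455 to 476), and monocyte-like cells at 387 CPM (371 to 404) and 442 CPM (429 to 454), with log2 ratios of 0.12 and 0.19. These ratios cleared their counting intervals but were small beside that of Fcgr1. In NK cells Fcgr3 is the known receptor of antibody-dependent killing. NK-like cells held 12 and 26 UMIs of it, 53.0 CPM (27.4 to 92.6) and 69.5 CPM (45.4 to 102), and 11.8% and 12.7% of them had a UMI, against 9.31% and 5.49% of T-like cells. The NK-like cells had median depths of 1984 and 1710 UMIs. In the library labelled WT the intervals of NK-like and T-like levels overlapped (T-like cells 31.5 to 46.8 CPM), and in that labelled KO they did not (18.8 to 30.1 CPM).

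Fcgr4, the receptor of intermediate affinity, was the activating receptor most biased to macrophage-like cells. There it stood at 256 CPM (249 to 264) in the library labelled WT and 290 CPM (282 to 298) in that labelled KO, a log2 ratio of 0.18 (0.12 to 0.24) that was 0.12 with Leiden clusters and 0.32 over 4 equally weighted bands of matched macrophage and monocyte marker score. Monocyte-like cells held less, 110 CPM (101 to 120) and 155 CPM (147 to 162), but differed more, 1.40-fold or 0.49 on the log2 scale (0.35 to 0.63), and 0.79 with cells thinned to 1000 UMIs. Granulocyte-like cells held 126 and 154 CPM, with a log2 ratio of 0.29 whose interval included 0 (-0.10 to 0.67) and 0.14 with TMM scaling. Patrolling, or nonclassical, monocytes are known to carry much Fcgr4. The 226 and 395 macrophage-like or monocyte-like cells with UMIs of at least 2 nonclassical monocyte genes (Ace, Adgre4, Treml4, Eno3, Pglyrp1, Spn) held 248 and 260 CPM, and the 2511 and 4352 other cells of these classes 219 and 234 CPM. Detection of 2 genes depends on depth, so this gate does not give the level of nonclassical monocytes alone. Fcgrt in the gated cells was at 93.2 and 67.3 CPM, nearer to macrophage-like (107 and 97.6 CPM) than to monocyte-like cells (32.4 and 24.99 CPM).

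Fcer1g, the γ chain, was the most abundant of the 6 genes in all 11 classes and both libraries (with 3' counts, 1 end per molecule, so length does not enter the comparison). Its level was 3642 CPM (3614 to 3670) in macrophage-like cells labelled WT and 3389 CPM (3361 to 3417) in those labelled KO, a log2 ratio of -0.10 (-0.12 to -0.09). In monocyte-like cells it was 3183 and 3339 CPM, a log2 ratio of 0.07 that was 0.02 with Leiden clusters and turned to -0.0093 with cells thinned to 1000 UMIs, and in granulocyte-like cells 3219 and 2940 CPM, a log2 ratio of -0.13 that was -0.28 with TMM scaling. Over the 4 equally weighted bands of marker score the Fcer1g ratio was -0.0068, from 0.05 and 0.09 in the 2 more monocyte-like bands to -0.14 in the most macrophage-like one. The number of Fcer1g UMIs per activating receptor UMI was 3.75 and 2.95 in macrophage-like, 3.62 and 2.89 in monocyte-like and 4.18 and 3.22 in granulocyte-like cells. NK-like cells, where the γ chain also serves the receptor Ncr1, held 1903 CPM (1728 to 2092) and 1577 CPM (1453 to 1710). A single cell held 91 of the 431 Fcer1g UMIs of the NK-like cells labelled WT. The pDC-like cells, the class of plasmacytoid dendritic cells, held 1173 and 1441 CPM with only 14 and 29 UMIs of the activating receptors. Fcgr2b stood at 83.6 and 77.5 CPM in them, from 24 and 27 UMIs. T-like cells stood at 324 and 233 CPM, below the NK-like intervals, and at 249 and 140 CPM in those without a UMI of the macrophage genes C1qa, C1qb or C1qc. Thinned to 1000 UMIs, 78.4% and 74.5% of NK-like cells had a Fcer1g UMI, against 16.2% and 13.8% of T-like cells.

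Fcgr2b, the inhibitory receptor, did not differ between the libraries beyond counting error in monocyte-like cells and was somewhat higher in macrophage-like cells labelled KO. In monocyte-like cells it stood at 442 CPM (424 to 460) and 433 CPM (420.2 to 445), giving a log2 ratio of -0.03 (-0.10 to 0.04). Macrophage-like cells held 366 CPM (357 to 375) and 411 CPM (401 to 421), giving a log2 ratio of 0.17 (0.12 to 0.22), which was 0.057 over the 4 bands of marker score. In B cells it is known as the sole Fcγ receptor, and B-like cells held 161 CPM (122 to 208) labelled WT and 105 CPM (73.6 to 145) labelled KO, from 58 and 36 UMIs, while each activating receptor there was at 16 UMIs or fewer. The log2 ratio in B-like cells was -0.61, with an interval that included 0 (-1.25 to 0.01). Immunoglobulin chains took 13.5% and 21.2% of all B-like UMIs, and without them in the total Fcgr2b stood at 186 and 133 CPM (an alternative chosen after seeing the data). In the cDC1-like class Fcgr2b was lower in the library labelled KO, 201 and 167 CPM with a log2 ratio of -0.26 (-0.49 to -0.04), and in its cells without a C1q UMI it was at 132 and 78.3 CPM, with a ratio of -0.75 (-1.38 to -0.14).

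Fcgrt, the FcRn heavy chain, had the lowest level of the 6 genes in macrophage-like cells and an order over the classes unlike that of the others. Its highest values were in cDC1-like cells, at 140 CPM (124 to 157) and 118 CPM (102 to 136), and in cDC2-like cells, at 140 CPM (122 to 160) and 123 CPM (106 to 142), and the intervals of these classes overlapped. In the library labelled KO the intervals of cDC1-like cells also overlapped those of macrophage-like cells and of pDC-like cells, 83.3 CPM (55.8 to 120), so the order at the top was not resolved there. Macrophage-like cells held 107 CPM (102 to 111) and 97.6 CPM (92.98 to 102), giving a log2 ratio of -0.13 (-0.22 to -0.03), which was -0.28 by mean per-cell levels, -0.31 with cells thinned to 1000 UMIs and -0.19 with Leiden clusters. Monocyte-like cells held 32.4 and 24.99 CPM, a log2 ratio of -0.37 (-0.66 to -0.09) that was -0.22 when thinned. With Leiden clusters in place of the gate the values were 79.0 and 48.4 CPM and -0.71. Its partner B2m, the light chain shared with MHC class I, stood at 2956 and 3068 CPM in macrophage-like cells and at 2531 and 3205 CPM in monocyte-like cells. Granulocyte-like cells held 55 and 9 Fcgrt UMIs, 39.4 and 15.8 CPM, and only 7 and 2 of these UMIs were in cells without a C1q UMI.

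**Figure D2:**
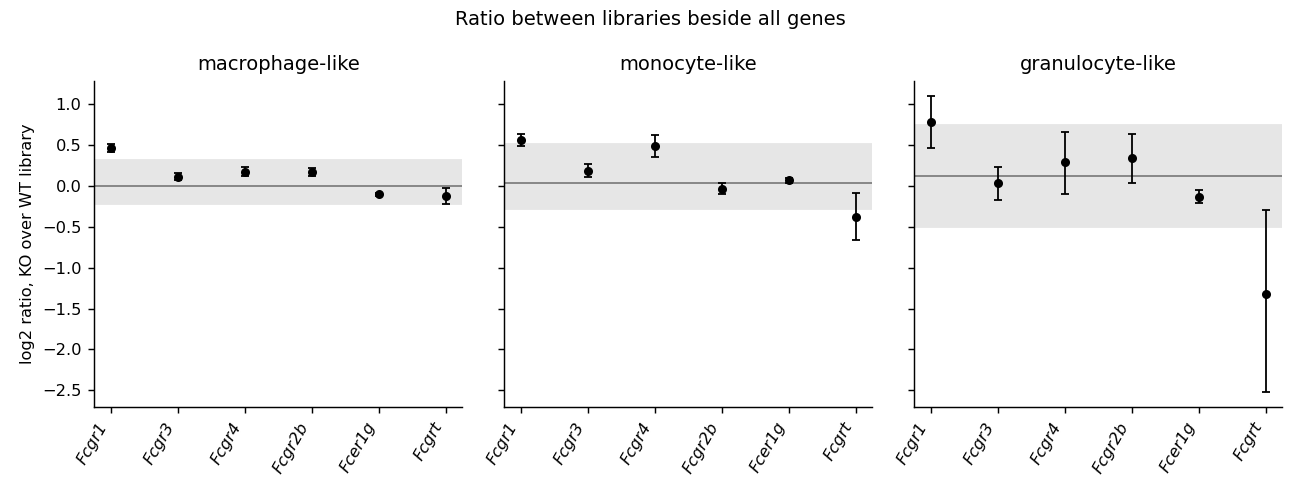
Log2 ratio of KO over WT (vertical axis) of each gene in macrophage-like, monocyte-like and granulocyte-like cells, with exact 95% counting intervals as bars, the median of all genes tested as a grey line and their 5th to 95th percentile as a grey band. Fcgr1 lies above the grey band in macrophage-like and monocyte-like cells, at 0.46 and 0.56, while its granulocyte-like value of 0.79 was 0.07 (-0.76 to 0.86) in cells without a C1q UMI.

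Measured against all genes, Fcgr1 stood near the upper end. Genes that reached 50 CPM in at least 1 library were compared, with a pseudocount of 1 CPM and a difference of 0.32 on the log2 scale as the limit. In macrophage-like cells 1 of the 6 members was higher by this much in the library labelled KO (Fcgr1), and of all 2771 genes 4.73% were. In monocyte-like cells 2 of 5 members were higher (Fcgr1 and Fcgr4), against 11.4% of 2914 genes, and Fcgrt was under 50 CPM. Among granulocyte-like cells 2 of 5 were higher (Fcgr1 and Fcgr2b), against 27.3% of 2839 genes, and Fcgrt was again under 50 CPM. TMM scaling lowered every granulocyte-like ratio by 0.15, which left 1 of 5 members higher (Fcgr1, at 0.64 with the pseudocount), took Fcgr2b from 0.34 to 0.19, under the limit, and turned the share of all genes higher and lower from 27.3% and 11.3% to 15.4% and 19.2% (an alternative chosen after seeing the data). In granulocyte-like cells without a C1q UMI the Fcgr1 ratio was 0.07, with an interval that included 0, and that of Fcgr2b 0.87 (0.18 to 1.55). No member that reached 50 CPM was lower by the limit, where 2.06%, 3.57% and 11.3% of all genes were, but Fcgrt, which did not reach it in monocyte-like and granulocyte-like cells, had log2 ratios past the limit there, -0.36 and -1.27 with the pseudocount. The median log2 ratio of the members was 0.14, 0.19 and 0.29 in the 3 classes, and that of all genes 0.01, 0.04 and 0.12. Fcgr1 exceeded 97.5% of all genes in macrophage-like cells and 96.0% in monocyte-like cells, where Fcgr4 exceeded 94.1%, while Fcgr2b exceeded 84.1% and 36.4% in these classes.

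The activating and inhibitory receptors stood in different ratios in the classes. Monocyte-like cells held 1.99 UMIs of Fcgr1, Fcgr3 and Fcgr4 together per Fcgr2b UMI in the library labelled WT (interval 1.89 to 2.09) and 2.68 in that labelled KO (2.59 to 2.77). The intervals did not overlap, and the thinned values were 2.02 and 2.63. In macrophage-like cells the ratios were 2.65 (2.58 to 2.73) and 2.79 (2.72 to 2.87), which overlapped slightly. Granulocyte-like cells held 3.95 and 3.70, with overlapping intervals, and 6.61 and 4.81 after thinning. Those of them without a C1q UMI held Fcgr2b at 72.1 and 132 CPM and Fcgr3 at 521 and 551 CPM. Among dendritic cells the cDC1-like ratio was 1.57 (1.38 to 1.79) and 2.45 (2.13 to 2.84) and the cDC2-like ratio 1.27 and 1.61. Thinned cDC1-like cells gave 0.93 and 2.29, the first from 27 activating and 29 inhibitory UMIs. The cDC1-like cells without a C1q UMI labelled WT held 11, 19 and 4 UMIs of Fcgr1, Fcgr3 and Fcgr4, and 60 of Fcgr2b. Those labelled KO held 35, 23 and 13 UMIs, and 37 of Fcgr2b. Of the 11 classes at full depth, with all their cells included, B-like cells alone had fewer activating than inhibitory UMIs in both libraries. Their ratios were 0.41 (0.25 to 0.68) and 0.33 (0.16 to 0.66).

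**Figure D3:**
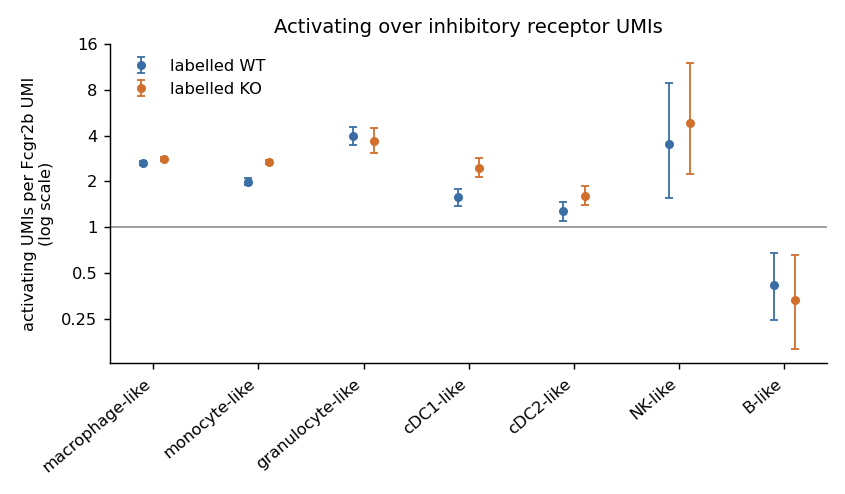
UMIs of Fcgr1, Fcgr3 and Fcgr4 together per UMI of Fcgr2b (log axis) in 7 classes, blue for the library labelled WT and orange for KO, with 95% intervals from the exact binomial interval of the counts. Monocyte-like cells lie at 1.99 and 2.68 with separate intervals, and only B-like cells lie below the line at 1. All cells of each class are included, also those with C1q UMIs.

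Because monocytes that enter a tumour mature into macrophages, macrophage-like and monocyte-like cells were also ordered by the difference of their marker scores and divided into 4 bands of equal size, the same cuts for both libraries. C1qa, 1 of the genes of the score, went over the bands from 78.4 to 3837 CPM in the library labelled WT and from 74.4 to 4204 CPM in that labelled KO. Fcgr4, which the score did not use, was higher in each further band, at 72.0, 137, 224 and 270 CPM labelled WT and 119, 184, 275 and 300.0 CPM labelled KO. The log2 ratio of Fcgr4 was 0.73 in the most monocyte-like band and 0.43, 0.30 and 0.15 in the next ones, so the libraries lay closest in the most macrophage-like cells. Fcgr1 ran the other way, from 361 to 271 CPM labelled WT and from 570 to 337 CPM labelled KO between the outer bands, with log2 ratios of 0.66, 0.49, 0.57 and 0.32. Its intervals cleared 0 in every band, so the higher Fcgr1 in the library labelled KO was seen at each matched position. Fcgrt increased from 20.8 to 123 CPM and from 20.7 to 124 CPM, and in the outer bands its libraries did not differ beyond counting error, while in the second band it was lower in the library labelled KO, at 40.7 and 28.6 CPM with a log2 ratio of -0.51 (-0.85 to -0.16). Fcgr2b was highest in the second band, 506 and 473 CPM, but labelled KO its interval there overlapped that of the third band, at 467 CPM. The Fcgr2b ratio changed sign between bands (0.16, -0.10, 0.07 and 0.15). The bands were not free of other differences, since Ly6c2 was at 140 and 300 CPM in the third. The part of that in the receptor ratios was not tested. The macrophage and monocyte scores lay within 10% of each other in 4.06% and 4.68% of these cells.

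**Figure D4:**
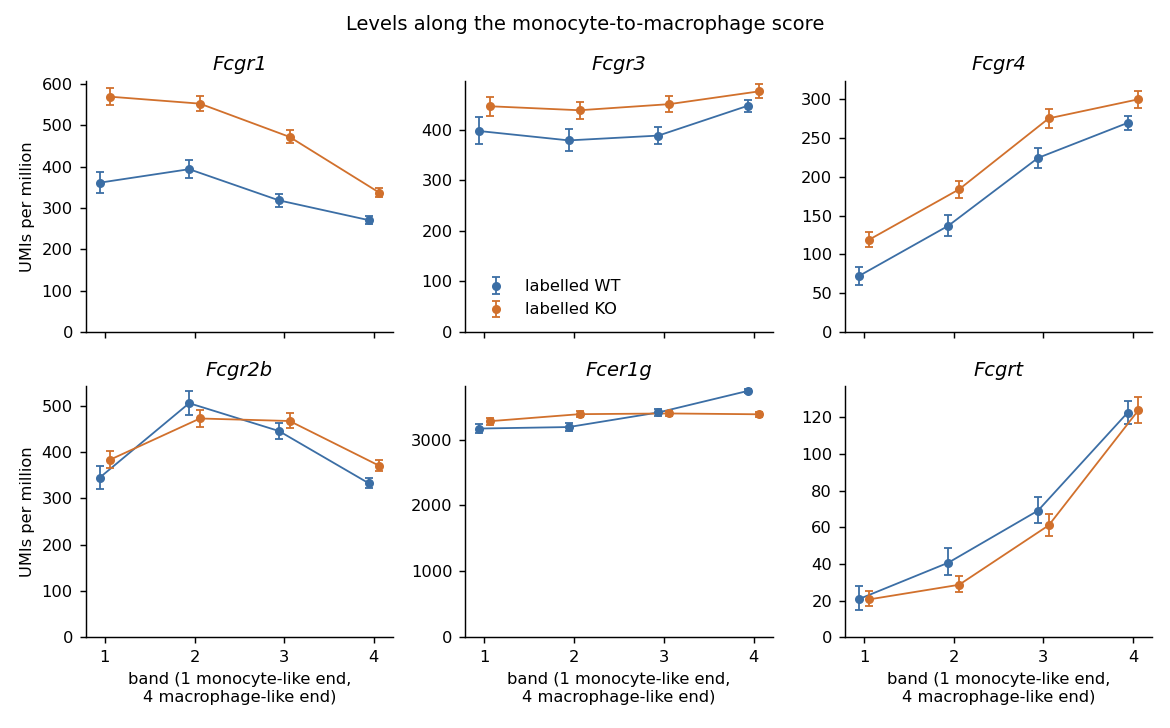
Level of each gene (CPM, linear axes from 0) in 4 bands of macrophage-like and monocyte-like cells, from the monocyte-like end (1) to the macrophage-like end (4), blue for the library labelled WT and orange for KO, with exact 95% Poisson intervals. Fcgr4 and Fcgrt climb towards band 4 in both libraries, Fcgr1 declines from 570 to 337 CPM labelled KO, and the Fcgr1 points of the libraries are apart in all bands.

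Within macrophage-like cells the difference in Fcgr1 was found in cycling and other cells. Cycling macrophage-like cells, with UMIs of at least 3 of 8 proliferation genes, held 266 and 327 CPM, a log2 ratio of 0.30, and the others 298 and 428 CPM, a ratio of 0.52. The inhibitory Fcgr2b was lower in cycling cells, at 283 and 301 CPM, than in the others, at 421 and 469 CPM. In single cells thinned to 1000 UMIs, at least 1 of the 4 Fcγ receptor genes was detected in 71.8% and 77.2% of macrophage-like cells, in 64.9% and 72.3% of monocyte-like cells and in 7.06% and 8.46% of T-like cells. UMIs of 2 or more of the 4 genes were seen in 462 of 1540 macrophage-like cells of the WT library and in 736 of 1882 of the KO library.

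Receptor UMIs in classes other than macrophage-like and monocyte-like cells lay partly in cells that also held macrophage transcripts. All 12 macrophage markers of the gate were detected in granulocyte-like and mature DC-like cells of both libraries, at a summed 4659 and 3563 CPM and at 4666 and 2380 CPM, against 19414 and 17776 CPM in macrophage-like cells. An alternative chosen after seeing the data left out every cell with a UMI of C1qa, C1qb or C1qc, which also leaves shallower cells. In granulocyte-like cells this kept Fcgr3 at 521 and 551 CPM and Fcgr4 at 123 and 151 CPM. Fcgr1 went from 143 and 247 CPM to 73.7 and 77.6 CPM, and its log2 ratio from 0.79 to 0.07, with an interval that included 0 (-0.76 to 0.86). Fcgr2b went from 195 and 247 CPM to 72.1 and 132 CPM. The higher Fcgr1 of granulocyte-like cells labelled KO was thus not seen in the 407 and 201 such cells without a C1q UMI. Mature DC-like cells (marked by Ccr7 and Fscn1) had all 4 Fcγ receptors lower in the library labelled KO, with log2 ratios between -1.35 and -1.02, and C1qa itself was at 604 and 300.0 CPM in them. Their 61 and 95 cells without a C1q UMI held at most 6 UMIs of any of these receptors in either library, too few for a ratio. The 50 and 51 cDC1-like cells without a C1q UMI held Fcgr1 at 24.2 and 74.1 CPM and Fcgr4 at 8.78 and 27.5 CPM, below the levels over the whole class, and Fcgrt at 184 and 161 CPM. In T-like cells Fcgr1 went from 19.3 and 37.0 CPM to 19.4 and 16.9 CPM. The NK-like cells without a C1q UMI kept Fcgr3, at 52.4 and 81.6 CPM from 7 and 18 UMIs, and B-like ones kept Fcgr2b, at 171 and 105 CPM.

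**Figure D5:**
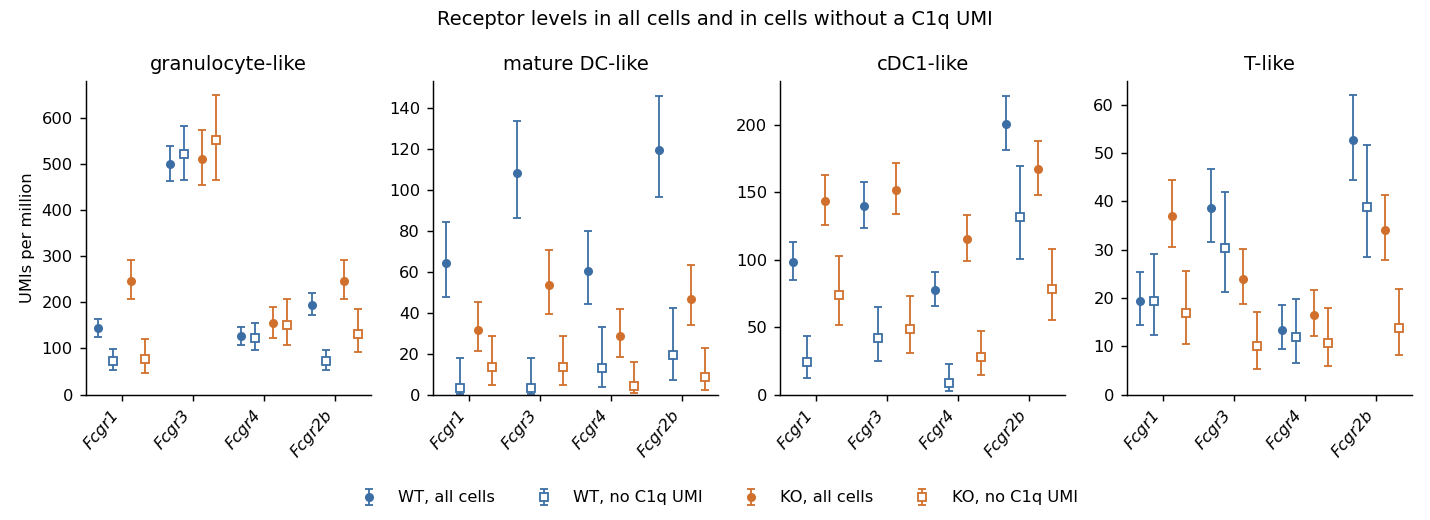
Levels of the 4 Fcγ receptor genes (CPM, linear axes from 0) in all cells of a class (filled circles) and in its cells without a C1qa, C1qb or C1qc UMI (open squares), blue for the library labelled WT and orange for KO, with exact 95% Poisson intervals. Granulocyte-like cells keep Fcgr3 at 521 and 551 CPM, whereas in mature DC-like cells without a C1q UMI all 4 receptors are at 19.4 CPM or less.

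Over 22 class and library sums, the profiles of Fcgr1, Fcgr3 and Fcgr4 were close to each other (Pearson r of log2 levels 0.91 to 0.95), and Fcgrt was the least like the others (0.37 to 0.65). These points share libraries and sequencing depth, and the correlations are descriptions. The genes of the most similar profile among 6001 were Ctsc (a lysosomal protease), Ccl6 and Clec4a3 for Fcgr1, with r of 0.96 for each. For Fcgr3 they included Sat1 and Metrnl, and for Fcgr4 they were Ccl2, Adgre1 (which encodes F4/80) and Msr1 (a scavenger receptor), with r of 0.95 to 0.96. Fcer1g was closest to Tyrobp, the adaptor DAP12, at 0.97, then to Gnai2 and Fes. The closest to Fcgr2b were Ctsc, Tgfbi and Il6ra at 0.92 to 0.93, and to Fcgrt Erp29 (a chaperone of the endoplasmic reticulum), Slamf9 and Zfp385a at 0.85 to 0.89.

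The partners of the receptors were followed in 69 genes of 8 lists, against the shares of all genes given above. In macrophage-like cells 35 were at 50 CPM or more, of which 5 were higher and 3 lower in the library labelled KO by the same limit, with a median log2 ratio of 0.09. Of the 13 tested genes of signalling downstream of the activating receptors, 0 were higher and 0 lower, and Syk, the kinase recruited by the γ chain, was at 121 and 130 CPM. Among the 5 tested brakes, the higher gene was Dok2, an adaptor that dampens tyrosine kinase signals, at 132 and 174 CPM, while Inpp5d, which encodes SHIP1, was at 155 and 146 CPM. Of the 3 tested receptors that also signal through Fcer1g, Clec4e (the receptor Mincle) was higher, at 52.4 and 73.3 CPM. In monocyte-like cells all 3 passed the limit (Clec4e with a log2 ratio of 0.54, Clec4n, or Dectin-2, with 0.39 and Clec4d with 0.34), among 10 higher and 0 lower genes of 37 tested. Of these 10, 3 were the immunoglobulin genes Ighg2b, Ighg2c and Igkc, of whose UMIs labelled KO single cells held 99.6%, 98.2% and 47.2%. B2m and Malt1, a protease of the NF-κB pathway, were also among the higher ones there (log2 ratios 0.34 and 0.73). In granulocyte-like cells 9 of 39 were higher and 6 lower, against 27.3% and 11.3% of all genes. With TMM scaling these shares of all genes were 15.4% and 19.2%, and the list counts were not repeated with it. The lower genes included Igkc, Igha and Jchain, of whose UMIs labelled WT single cells held 99.6%, 98.9% and 100%.

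The lowest of the listed ratios in macrophage-like cells was that of Fcrls, an Fc receptor-like scavenger gene of macrophages, at 77.6 and 42.3 CPM, a log2 ratio of -0.86. Next came Cd72, an inhibitory lectin, at 179 and 129 CPM (-0.47), and Ighm, the IgM heavy chain, at 87.5 and 64.7 CPM (-0.43). The highest were other immunoglobulin transcripts, Jchain at 18.7 and 77.9 CPM (2.003), Igkc at 202 and 438 CPM (1.11) and Igha at 175 and 348 CPM (0.99). A single cell held 95.9% of the macrophage-like Igkc UMIs labelled WT and another 55.1% of those labelled KO, so these ratios rest on a few cells. Transcripts of the IgG2c heavy chain, Ighg2c, were, among the 11 classes, highest in B-like cells, at 7836 and 18317 CPM, where a single WT cell held 48.0% of the immunoglobulin UMIs. Cells left ungated also held much Igkc, 28459 and 33781 CPM. These are transcripts of the sorted cells, and IgG protein was not measured.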

How the data were processed

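The deposited raw UMI counts were, per the file headers, written by Cell Ranger 4.0.0, which the authors ran on the mm10 genome, and were not normalised. Barcodes were tied to libraries by a second deposited table. Cells with at least 200 genes and at most 10% mitochondrial UMIs were kept (5661 labelled WT and 8157 labelled KO). Scrublet in scanpy 1.11.5 marked 1 cell per library by its automatic threshold, so the highest scores were removed at 0.8% per 1000 cells (256 and 532 cells). Each cell was assigned to the class whose markers had the highest scaled mean, provided at least 3 of them had a UMI, and was set aside as mixed (248 and 286 cells) where another lineage reached 50% of that score. Cells below this stayed ungated (270 and 448). UMIs were summed per class and library and divided by the class total (CPM). Intervals at 95% were exact Poisson for levels, exact Clopper-Pearson for shares and exact conditional binomial for ratios, computed with scipy 1.17.1. PCR copies were collapsed by UMI, and intervals cover counting error only. The classes had 76 or more cells per library. Genes were named from fixed lists: all 6 members, the 3 highest and 3 lowest list genes at 50 CPM in macrophage-like cells, list genes whose role is described, and the 3 closest profiles per member, of which 1 for Fcgr3 is not reported here. The members and lists were chosen with earlier results of these data known. Coordinates came from GENCODE M21 (GRCm38) and promoters from RefSeq (GRCm38.p6), matched by symbol for all 6 members. Functions were tested on simulated data. The alternatives were mean per-cell levels, thinning, other filters and gates, Leiden clusters (leidenalg 0.10.2), score bands, edgeR 4.0.16 TMM and median ratio scaling, and a fold of 1.5, and after seeing the data cells without C1q UMIs, both scalings in granulocyte-like cells and B-like totals without immunoglobulin.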

Additional observations from a re-analysis of the deposited data

Results flagged for a closer look

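All 6 genes had a log2 ratio of KO over WT above 0 in 1 class and below 0 in another, each with a counting interval clear of 0 and at least 20 UMIs in each library. With 1 library per genotype none of these differences was tested. Fcgr1 had ratios of 0.94 in T-like and -1.02 in mature DC-like cells, a difference of 1.96. In T-like cells without a C1q UMI the Fcgr1 ratio was -0.20, with an interval that included 0 (-1.11 to 0.71). For Fcgr3 the ratios were 0.19 in monocyte-like and -1.02 in mature DC-like cells (difference 1.20), for Fcgr4 0.57 in cDC1-like and -1.09 in mature DC-like cells (1.66) and for Fcgr2b 0.34 in granulocyte-like and -1.35 in mature DC-like cells (1.69). The granulocyte-like Fcgr2b ratio was 0.1957 with TMM scaling and 0.87 (0.18 to 1.55) in cells without a C1q UMI. C1qa, the macrophage gene, stood in mature DC-like cells at 604 CPM labelled WT and 300.0 CPM labelled KO, a log2 ratio of -1.01, and the cells without a C1q UMI there held at most 6 UMIs of any Fcγ receptor in either library. Fcer1g differed by 1.2545 between pDC-like (0.30) and B-like cells (-0.96, from 88 and 43 UMIs). Single B-like cells held 27 of these 88 UMIs and 21 of these 43. Fcgrt differed by 1.07 between melanoma-like cells (0.70, from 65 and 133 UMIs) and monocyte-like cells (-0.37).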

How the results depend on the processing

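No member's log2 ratio in macrophage-like cells changed sign under any of the 10 alternatives. Fcgr1 there (0.46) ran from 0.45 to 0.62, with 0.57 by mean per-cell levels, 0.62 thinned to 1000 UMIs, 0.57 with Leiden clusters and 0.52 over the 4 bands. The bands gave 0.17 for Fcgr3, 0.32 for Fcgr4, 0.057 for Fcgr2b and -0.0068 for Fcer1g, and Leiden clusters 0.12 for Fcgr4, 0.22 for Fcgr2b and -0.072 for Fcer1g. Thinning gave 0.23 for Fcgr2b, -0.081 for Fcer1g and -0.31 for Fcgrt, mean per-cell levels -0.073 for Fcer1g and -0.28 for Fcgrt, and median ratio scaling -0.12 for Fcer1g. In monocyte-like cells Fcer1g (0.07) was -0.0093 when thinned, the only ratio there with an interval clear of 0 that changed sign, and Fcgr4 (0.49) ran from 0.33 to 0.79. At a fold of 1.5, 0 members were higher in macrophage-like and 0 in monocyte-like cells, against 1.30% and 3.23% of all genes. In granulocyte-like cells TMM and median ratio scaling each left 1 member higher, where 2 were, and 15.4% and 14.9% of all genes (27.3%). Leaving out cells with a C1q UMI turned Fcgr1 to -0.25 (-0.75 to 0.24) in cDC2-like cells (from 0.32) and to -0.20 (-1.11 to 0.71) in T-like cells (from 0.94). Of the results compared 7 stayed within the interval of the main value, 10 left it and these 2, with main intervals clear of 0, changed sign. Among the 10, Fcgr3 in cDC2-like cells also changed sign, from 0.12, whose interval included 0, to -0.33. Fcgr1 in cDC1-like cells, not among those compared, went from 0.54 to 1.62 (0.61 to 2.74), from 11 and 35 UMIs. Levels under the gate of 4 markers or Leiden clusters stayed within their interval for 28 values and left it for 20. The cause of these shifts was not tested. Without replicate libraries, no replicate could be left out. No paired analysis was possible because each genotype had 1 library. Granulocyte-like, NK-like and B-like values rest on few UMIs per cell.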

Other observations

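T-like cells were also divided by their Cd8 and Cd4 UMIs. In the 356 T-like cells of each library with a Cd8a or Cd8b1 UMI, Fcgr2b stood at 59.4 CPM labelled WT and 33.6 CPM labelled KO, from 122 and 72 UMIs. The 72 and 122 T-like cells with a Cd4 UMI held 1 and 25 Fcgr2b UMIs. The T-like cells without a C1q UMI held Fcgr2b at 38.8 and 13.8 CPM, from 46 and 18 UMIs.

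Other Fc receptor genes were placed by class. Fcrla, an intracellular Fc receptor-like protein of the B lineage, was highest in pDC-like cells at 397 and 488 CPM. Fcmr, the IgM receptor, was highest in B-like cells at 202 and 96.3 CPM, and so was Fcer2a, the low-affinity IgE receptor, at 125 and 37.9 CPM. Clec4e and Clec4d, lectins that signal through Fcer1g, were highest in granulocyte-like cells, at 1078 and 585 CPM and at 816 and 641 CPM. The immunoglobulin UMIs of granulocyte-like cells labelled WT came mostly from 1 cell, which held 99.6% of the Igkc UMIs and 100% of the Jchain UMIs of the class.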
